A study of Mus musculus with 8 samples.

Results

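Integrins are adhesion receptors built from an alpha and a beta chain, and the 10 genes described here encode the chains that dendritic cells are best known for. They are Itgae (αE, CD103), Itgb7, Itga4, Itgb1, Itgb2, Itgal (CD11a), Itgam (CD11b), Itgax (CD11c), Itgav and Itgb8. All probes annotated to them were taken, 28 of the 45281 on the array, and the 10 genes stand among 19057 genes with a symbol. The cells came from CCL17E/+ mice on a C57BL/6 background aged 2-5 months, where EGFP reports expression of Ccl17, a chemokine gene. All mice had received 100 µg of LPS, bacterial endotoxin, 15 h before. The lymph node (LN) group was EGFP-positive and came from mesenteric and peripheral nodes, and the spleen group was EGFP-negative. Both were sorted dendritic cells, positive for CD11c and CD11b and negative for NK1.1 and CD8alpha, with 4 arrays per group. Organ and CCL17 status change together, so their effects cannot be told apart. The number of mice behind each array is not given in the sources used here. The p-values therefore measure the spread between arrays, which may be technical.

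An alpha chain reaches the cell surface only with a partner. Itgae pairs with Itgb7 alone and binds E-cadherin on epithelium. Itgb7 also pairs with Itga4, and α4β7 binds MAdCAM-1 on vessels of the gut. Itga4 and Itgav can pair with Itgb1 instead. The β2 chain Itgb2 serves the leukocyte chains Itgal, Itgam and Itgax, which bind ICAMs, complement fragments and fibrinogen. αvβ8 releases active TGF-beta from its latent form. CD103 marks dendritic cells of the gut that migrate to its lymph nodes, and CD11c and CD11b define the sort itself.

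The groups differed in opposite directions for the 2 chains of CD103 integrin. Itgae transcript was 23.6-fold higher in LN cells by its brightest probe, and Itgb7 transcript was 5.28-fold lower there. Itgav was 1.88-fold lower in LN by 1 of its 2 tested probes, near the threshold. No probe of Itga4, Itgb1, Itgb2 or Itgax passed the test, and Itgal, Itgam and Itgb8 were too dim to be tested. In bulk samples, fewer cells of a kind and less RNA per cell cannot be told apart.

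Mean intensity per array ran from 239 to 521, and 13743 to 14985 probes per array were detected, meaning a detection p under 0.01 against negative control beads. Spleen replicate 4 was the dimmest array and had a mean correlation of 0.887 with the other spleen arrays, against 0.941 to 0.951 for those and 0.969 to 0.975 among LN arrays. Results that rest on it are given with and without it. Ccl17 had a log2 intensity of 12.51 ± 0.33 (SD, n = 4) in LN and 6.24 ± 0.50 (SD, n = 4) in spleen cells, which checks the labels and is no finding. Of 14726 probes detected on at least 4 arrays 1831 were called by limma at a Benjamini-Hochberg adjusted p under 0.05. With each gene taken at its brightest probe, 600 of 8252 genes were higher in LN and 568 lower. Adjusted p-values of genes and probes in the text come from this two-sided test.

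Of the 10 integrin genes 7 had a tested probe, 1 was called higher in LN and 2 lower. Over all genes tested 14.2% were called, 7.27% higher and 6.88% lower, and 22.2% had groups that did not overlap. With LN replicate 1, 2 or 3 or spleen replicate 2 or 3 left out, 1 was called lower, as Itgav then lost its call. The median log2 fold of LN over spleen was -0.51 over the 7 genes and 0.03 over all genes tested. Of the 28 probes 16 passed the detection filter and 7 were called, 5 of them Itgae probes, which read the same gene and are not independent. Over all probes tested 12.4% were called, 6.25% higher and 6.18% lower. Members and list genes that passed the filter through 1 group alone had to differ, so these counts and those of the lists below are a description.

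**Figure D1:**
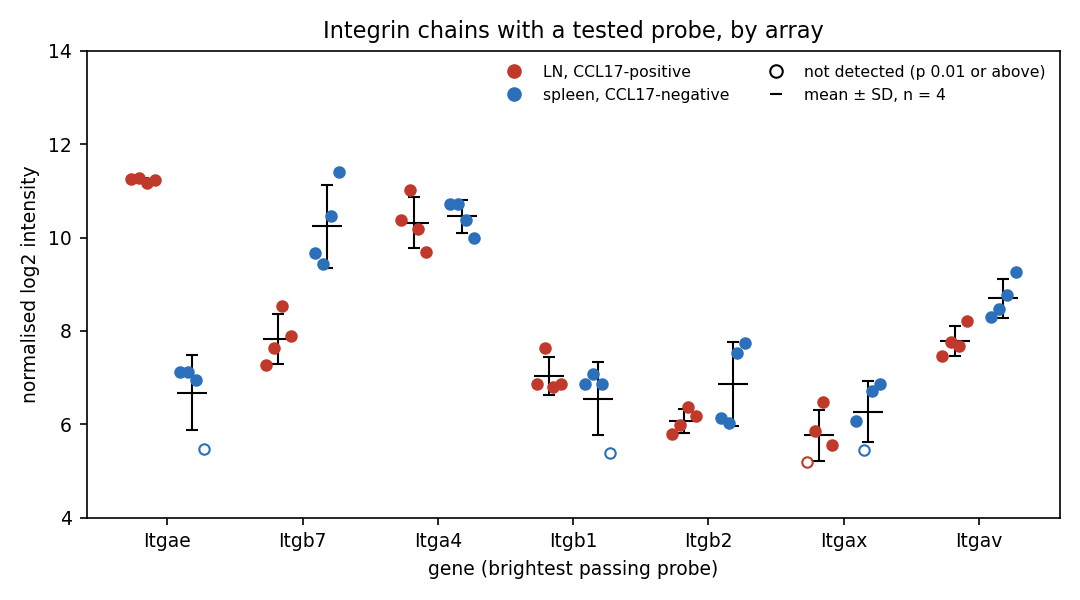
Normalised log2 intensity (vertical axis) of the brightest tested probe of 7 integrin genes in each of 4 LN arrays (red) and 4 spleen arrays (blue), with mean ± SD and open points where the probe was not detected. Itgae lay between 11.17 and 11.27 in LN and between 5.47 and 7.13 in spleen, Itgb7 between 7.28 and 8.54 in LN and between 9.43 and 11.40 in spleen. Heights of different genes come from different probes and are not comparable.

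Itgae encodes the αE chain, and its brightest probe, ILMN_1217629, gave log2 intensities of 11.26, 11.27, 11.17 and 11.24 in LN replicates 1 to 4. Spleen replicates 1 to 4 had 7.13, 7.13, 6.96 and 5.47. Every LN array lay above every spleen array, the LN values were close together, and spleen replicate 4 was lowest and the one array where the probe was not detected. The log2 fold was 4.56 ± 0.35 (SE, n = 4 per group, adjusted p 2.55e-05 in limma), a 23.6-fold difference. It was 4.14 ± 0.16 within the first BeadChip and 4.99 ± 0.52 within the second, the glass slides that each held 2 arrays of both groups. Without spleen replicate 4 it was 4.16 ± 0.14. Among the 8252 genes tested it was the sixth largest fold in the direction of LN.

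The other Itgae probes bore on the same transcript. ILMN_2699898 had log2 intensities of 10.94, 11.12 and 10.87 in LN replicates 1, 2 and 4, with replicate 3 between them, and 6.99, 6.88, 6.74 and 4.95 in spleen. Its log2 fold was 4.60 ± 0.40 (SE, adjusted p 6.07e-05 in limma), or 4.12 ± 0.15 without spleen replicate 4. This array was again the lowest and again without detection. ILMN_2628900, ILMN_2628899 and ILMN_1249573 were detected on all 4 LN arrays and on 0 spleen arrays, so they passed the filter through LN alone and the fold has only a lower bound. Their log2 intensities were 7.90 to 8.76, 7.55 to 7.78 and 6.71 to 7.16 in LN and 4.71 to 5.26, 4.37 to 4.85 and 4.58 to 4.70 in spleen, with no overlap. LN signal was higher by at least 7.02-fold, 4.36-fold and 2.67-fold (adjusted p 2.55e-05, 1.44e-05 and 4.92e-05 in limma), and since these probes could enter the test only by differing, the p-values are no further support. The bound sets the LN mean against the lowest detected signal of each spleen array or the probe's own signal where that was higher. ILMN_2656090 was detected on 0 of the 8 arrays and was not tested.

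**Figure D2:**
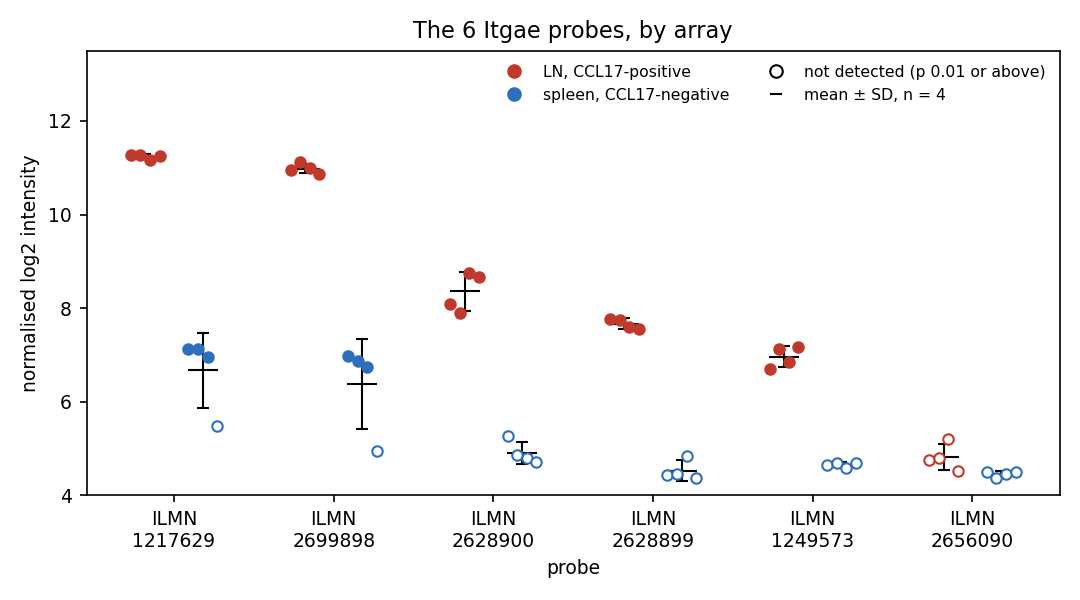
Normalised log2 intensity (vertical axis) of the 6 Itgae probes on each LN (red) and spleen (blue) array, with mean ± SD and open points where the probe was not detected. In 5 probes all LN points are filled and lie above all spleen points; 3 of these have no filled spleen point, and the probe on the far right has no filled point.

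The profile over the 8 arrays was compared between genes as the root mean square difference of log2 values after each gene was centred on its own mean. Nearest to Itgae among the other 8251 genes were 2510009E07Rik at 0.35, Apol10b, of the apolipoprotein L family, at 0.43, and Abcc3, an organic anion exporter, at 0.46. Their log2 folds were 4.56, 3.90 and 4.24. The 8 arrays hold only 2 groups, so these are mainly genes with a like fold and a like dip in spleen replicate 4.

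CD103 is also carried by dendritic cells of the CD8alpha or CD103 type, so their markers were read beside Itgae, as were those of Langerhans or epithelial-tract dendritic cells. Of 7 markers of the first type on the array 3 were tested and 0 called. Clec9a, a receptor for dead cells detected on 2 LN and 3 spleen arrays, differed by -0.43 ± 0.34 on the log2 scale (SE, adjusted p 0.515 in limma), the endocytic receptor Ly75 -0.20 ± 0.27 (adjusted p 0.748) and the lineage factor Irf8 0.05 ± 0.17 (adjusted p 0.91). The chemokine receptor gene Xcr1, Cd8a and Tlr3 were detected on 0 of the 8 arrays. The adhesion molecule Cadm1 was detected on 3 LN and 0 spleen arrays, with log2 intensities of 5.35 to 6.14 in LN and 4.78 to 5.26 in spleen that did not overlap, and was not tested. The summed normalised intensity of the list was 1156 to 1486 in LN and 1231 to 1421 in spleen, so the groups overlapped. Of 5 markers of Langerhans or epithelial-tract dendritic cells Cd207, Epcam and Cd24a were detected on 0 arrays. The retinoic acid enzyme Aldh1a2 was the 1 tested and was higher in LN (log2 fold 3.83 ± 0.44, SE, adjusted p 0.000308 in limma).

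Itgb7 encodes the β7 chain, the only partner of αE, and had a single probe, detected on all 8 arrays. Its log2 intensities were 7.28, 7.63, 8.54 and 7.89 in LN replicates 1 to 4 and 9.66, 9.43, 10.45 and 11.40 in spleen replicates 1 to 4. The groups did not overlap, the arrays of the second BeadChip were the higher ones in each group, and spleen replicate 4 was the highest of all. The log2 fold was -2.40 ± 0.43 (SE, n = 4 per group, adjusted p 0.00409 in limma). It was -2.09 ± 0.20 within the first BeadChip (adjusted p 0.000236) and -2.71 ± 0.45 within the second (adjusted p 0.018). Without spleen replicate 4 it was -2.01 ± 0.32 (adjusted p 0.00121). In unnormalized intensity the LN arrays had 252 to 469 and the spleen arrays 828 to 1409.

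Nearest to Itgb7 in profile were Oas3, an interferon-induced synthetase of the antiviral response, at a root mean square difference of 0.21, Ly6e, a surface protein also induced by interferon, at 0.31, and Susd2 at 0.32. Their log2 folds were -2.22, -1.89 and -2.05. The bases upstream of the transcript start are shown for Itgb7 and Itgav, the 2 chains called lower in LN, and for Oas3, the gene nearest to Itgb7 in profile. The sequences are RefSeq promoters of GRCm38.p6, which held 7 of the 10 integrin genes. Each run covers the 250 bases before the transcript start that the table uses, 5′ to 3′ on the gene's strand. For Itgb7 and Itgav this start lies inside the annotated span of the gene, downstream of its outermost start. Itgb7 lies at chr15:102231936-102232185 on the minus strand, Itgav at chr2:83724147-83724396 on the plus strand and Oas3 at chr5:120777660-120777909 on the minus strand. Capitals mark the core of the interferon-stimulated response element (GAAA, any 2 bases, GAAA), the RUNX core TGTGGT or the PU.1 type core GAGGAAG, each searched on both strands.
Itgb7: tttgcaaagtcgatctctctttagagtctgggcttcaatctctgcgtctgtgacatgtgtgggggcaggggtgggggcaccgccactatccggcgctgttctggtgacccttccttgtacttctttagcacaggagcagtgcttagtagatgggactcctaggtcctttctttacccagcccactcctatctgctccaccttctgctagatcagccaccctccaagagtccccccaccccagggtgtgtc
Itgav: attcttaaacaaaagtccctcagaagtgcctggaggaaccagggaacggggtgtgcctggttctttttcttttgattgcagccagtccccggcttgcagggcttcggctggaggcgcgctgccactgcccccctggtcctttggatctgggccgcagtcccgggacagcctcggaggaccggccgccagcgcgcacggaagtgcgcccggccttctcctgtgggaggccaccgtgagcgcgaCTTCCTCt
Oas3: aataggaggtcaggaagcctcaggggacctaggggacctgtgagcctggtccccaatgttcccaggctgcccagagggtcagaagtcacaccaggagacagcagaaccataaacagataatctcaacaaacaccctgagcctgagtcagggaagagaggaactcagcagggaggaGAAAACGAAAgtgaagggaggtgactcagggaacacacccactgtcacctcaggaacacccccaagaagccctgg
The interferon element was found once in Oas3 and in 0 of the 7 integrin windows, and 2.98% of 32851 promoter windows of this length hold it. The PU.1 core was found in Itgav and Itgam (10.6% of all windows) and the RUNX core in Itga4 (14.05% of all windows). A match describes letters and not binding, and no match speaks only of this window.

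Transcripts of other cells that can carry β7 were read beside Itgb7. The plasmacytoid marker list had a summed normalised intensity of 5444 to 6876 in LN and 13494 to 29188 in spleen, where replicate 4 was again highest. Without the interferon regulator Irf7 it was 2904 to 4275 in LN and 3389 to 5469 in spleen. Of its 6 tested genes 3 were lower in LN, Irf7 (-2.14 ± 0.33, SE, adjusted p 0.00159 in limma), Pacsin1 (-1.40 ± 0.33, adjusted p 0.0192) and the tetherin gene Bst2 (-0.79 ± 0.22, adjusted p 0.04). Over all genes tested 6.88% were lower in LN. Pacsin1 and Bst2 were no longer called when any of LN replicates 1, 3 and 4 or spleen replicates 1 and 2 was left out, nor Pacsin1 when spleen replicate 3 or Bst2 when LN replicate 2 was. The highest adjusted p was then 0.0659 and 0.117 in limma. The uncalled genes were the lectin Siglech (-0.37 ± 0.32, adjusted p 0.567) and the transcription factors Tcf4 (-0.41 ± 0.23, adjusted p 0.331) and Spib (0.75 ± 0.26, adjusted p 0.0984). Natural killer markers summed to 2009 to 4059 in LN and 2595 to 4728 in spleen. Klrb1c, which encodes NK1.1, and Ncr1 were detected on 0 arrays, and the perforin gene Prf1 had -0.02 ± 0.29 (adjusted p 0.98). Of 4 tested, 3 were lower in LN. They were the Ly49 receptor Klra3, undetected in LN and at least 2.48-fold brighter in spleen (adjusted p 0.000893), the protease Ctsw (-1.43 ± 0.25, adjusted p 0.00352) and the IL-18 receptor chain Il18rap, detected on 2 LN and 4 spleen arrays (-1.66 ± 0.30, adjusted p 0.00467). Klra3 passed the filter through spleen alone, so its p-value is no further support. B cell markers summed to 316 to 546 in LN and 534 to 728 in spleen, with Blk, detected on 2 LN and 4 spleen arrays, at -1.26 ± 0.46 (adjusted p 0.107), Cd79b at -0.43 ± 0.26 (adjusted p 0.362), and Ms4a1, Pax5 and Cr2 detected on 0 arrays. T cell markers summed to 5360 to 8940 in LN and 2194 to 8160 in spleen, with the IL-7 receptor Il7r at 0.72 ± 0.47 (adjusted p 0.411), and Cd8b1 at -0.24 ± 0.29 (adjusted p 0.715). Cd3d was detected on 3 LN and 0 spleen arrays, Cd3e on 2 and 1, and Cd3g on 0. The sort left out NK1.1-positive cells and required CD11b, and its purity was not measured here. The part of these cells in the difference in Itgb7 was not tested.

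Itga4 encodes the chain that pairs with β7 or β1, and 4 of its 6 probes were tested. The brightest, ILMN_1232028, had log2 intensities of 10.37, 11.03, 10.19 and 9.70 in LN and 10.71, 10.73, 10.39 and 9.98 in spleen. The groups overlapped, and replicate 4 was the lowest array in both. The log2 fold was -0.13 ± 0.29 (SE, adjusted p 0.855 in limma). The other 3 tested probes had log2 folds between -0.50 and 0.30 with adjusted p-values of 0.331 to 0.958, and the remaining 2 probes were detected on 0 arrays.

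Itgb1 encodes the shared β1 chain. Its probe ILMN_2789077 had log2 intensities of 6.85, 7.64, 6.79 and 6.87 in LN and 6.87, 7.08, 6.86 and 5.39 in spleen. The groups overlapped, and spleen replicate 4 stood below the rest and was not detected. The log2 fold was 0.49 ± 0.38 (SE, adjusted p 0.515 in limma), or 0.10 ± 0.24 without spleen replicate 4. The other probe, ILMN_2609304, had its highest value, 7.48, in spleen replicate 4, and differed by 0.24 ± 0.30 (adjusted p 0.729). The 2 probes of 1 gene thus placed that array at opposite ends of the spleen group.

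**Figure D3:**
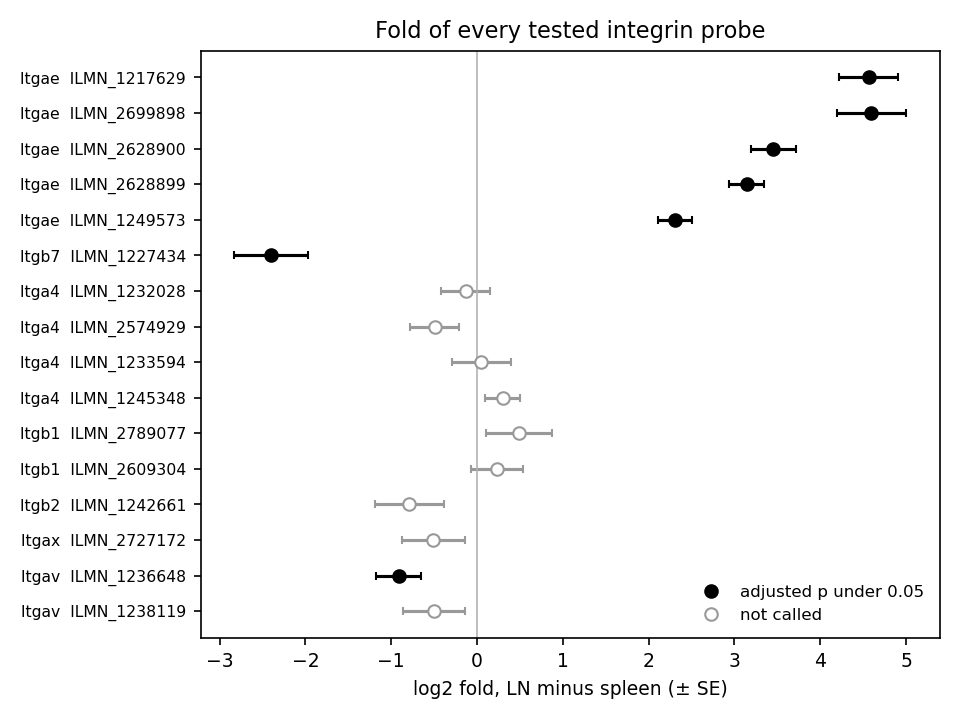
Log2 fold of LN over spleen (horizontal axis) with its SE for the 16 tested integrin probes, filled where the adjusted p was under 0.05. The 5 Itgae probes lie between 2.31 and 4.60, Itgb7 lies at -2.40, the brighter Itgav probe at -0.91, and the 9 open probes lie between -0.79 and 0.49. For the 3 Itgae probes with the smallest folds the spleen level is below detection.

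Itgav encodes the αv chain, which pairs with β1, β5 or β8 among others, and 2 of its 5 probes were tested. ILMN_1236648 had log2 intensities of 7.47, 7.77, 7.68 and 8.22 in LN and 8.30, 8.48, 8.77 and 9.26 in spleen. The groups did not overlap, by a gap of less than the spread within either. The log2 fold was -0.91 ± 0.26 (SE, adjusted p 0.048 in limma), -0.77 ± 0.21 within the first BeadChip (adjusted p 0.0338) and -1.06 ± 0.43 within the second (adjusted p 0.276). Leaving out LN replicate 1, 2 or 3 or spleen replicate 2 or 3 ended the call, with an adjusted p of up to 0.144. ILMN_1238119 gave -0.50 ± 0.36 (adjusted p 0.472) with overlapping groups. The other 3 probes were each detected on at most 1 array per group.

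The β2 family includes the markers of the sort. Itgb2, the shared β2 chain, had log2 intensities of 5.78, 5.98, 6.38 and 6.17 in LN and 6.14, 6.03, 7.54 and 7.75 in spleen. Spleen replicates 3 and 4 lay above all others and the rest overlapped, with a log2 fold of -0.79 ± 0.40 (SE, adjusted p 0.272 in limma). It was -0.21 ± 0.24 within the first BeadChip and -1.37 ± 0.41 within the second (adjusted p 0.613 and 0.13), and the difference between the BeadChips was not tested. The CD11c gene Itgax had 1 probe detected on 3 LN and 3 spleen arrays, with log2 intensities of 5.18, 5.85, 6.47 and 5.56 in LN and 6.07, 5.45, 6.72 and 6.86 in spleen. The groups overlapped, and the log2 fold was -0.51 ± 0.37 (adjusted p 0.472). Its other probe was detected on 0 arrays.

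The single probe of Itgam, the CD11b gene, reached detection on 1 LN array and 0 spleen arrays, although all cells were sorted as CD11b-positive. Its log2 intensities were 4.78, 4.53, 5.46 and 5.14 in LN and 4.85, 4.72, 5.05 and 5.61 in spleen, and the groups overlapped. The sort used surface protein, and the dim signal of 1 probe is no measure of that protein. Itgal, the αL chain of LFA-1, was detected on spleen replicate 3 alone. It had 4.70, 4.74, 5.03 and 4.48 in LN and 5.20, 5.34, 5.92 and 5.57 in spleen, so the spleen values were higher but nearly all below detection. It was not tested, since too few arrays detected it.

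Itgb8, the β8 chain of the TGF-beta activating integrin, was detected on LN replicates 1, 3 and 4 and on 0 spleen arrays by ILMN_2444158, 1 of its 3 probes. The log2 intensities were 5.70, 5.12, 5.44 and 5.41 in LN and 5.04, 5.49, 4.70 and 5.04 in spleen. The groups overlapped, and the highest spleen value lay above 3 of the LN values. The other 2 probes were detected on 0 arrays. With 3 arrays it missed the filter of 4 and was not tested.

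Other integrin chains were mostly not detected in either group. Of 15 on the array 8 were detected on 0 arrays and 3 were tested. Of these 2 were called higher in LN, against 7.27% over all genes tested. Itga5, which pairs with β1 as the fibronectin receptor, was detected on 4 LN and 3 spleen arrays and was higher in LN (log2 fold 2.17 ± 0.63, SE, adjusted p 0.0492 in limma). Itgb5, another partner of αv, was detected on all LN arrays and 0 spleen arrays, so it passed the filter through LN alone. Its difference was at least 1.30-fold (adjusted p 0.00354), and the p-value is no further support. Itga3, detected on 3 LN arrays and 1 spleen array, had 0.77 ± 0.32 (adjusted p 0.173). Itga5 kept its call only without LN replicate 2 or spleen replicate 4, with a highest adjusted p of 0.134 otherwise, and the number of chains higher in LN was 1 with LN replicate 1, 3 or 4 or spleen replicate 2 or 3 left out. Without spleen replicate 1 the number stayed at 2, although this Itga5 probe lost its call. Over all alternatives to the main fit the adjusted p of Itga3 ran from 0.0314 to 0.681 in limma.

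Among integrin ligands 4 of 11 tested genes were higher in LN and 1 was lower, with a median log2 fold of 0.20. Over all genes tested 7.27% were higher and 6.88% lower. Thy1, a surface ligand of αMβ2 that T cells also carry, was detected on 4 LN arrays and 1 spleen array. It was higher, against a spleen level near background (2.67 ± 0.30, SE, adjusted p 0.000301 in limma). The junctional molecule F11r, a ligand of αLβ2, was also higher (2.45 ± 0.31, adjusted p 0.000532). Icam5, detected on 4 LN and 0 spleen arrays, passed the filter through LN alone. It was higher by at least 1.88-fold (adjusted p 0.00154), and this p-value is no further support. The αv ligand Mfge8 was the fourth. Icam2, a ligand of αLβ2 detected on 1 LN array and 4 spleen arrays, was lower (-0.96 ± 0.27, adjusted p 0.0432) and lost its call without any 1 array other than LN replicate 3 (adjusted p up to 0.134), which left 0 lower. Icam1, the main ligand of the β2 family, had 0.20 ± 0.24 (adjusted p 0.716), and Vcam1, the ligand of α4β1, 0.83 ± 0.32 (adjusted p 0.132). The transcripts for the ligands of αEβ7 and α4β7 were at or near background. Cdh1, E-cadherin, was detected on 1 array of each group, and Madcam1 on 0 arrays.

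Of 18 tested genes that raise or restrain integrin activity from inside the cell 1 was higher in LN and 0 were lower. The shares over all genes tested were 7.27% and 6.88%. Arap3, a GTPase-activating protein, was detected on 4 LN and 0 spleen arrays, so it passed the filter through LN alone. It was higher by at least 4.52-fold (adjusted p 4.73e-05 in limma), and the p-value is no further support. A second gene was called without spleen replicate 3. The kindlin gene Fermt3 was at 0.57 ± 0.40 (adjusted p 0.454) and the adaptor Dok2, detected on 4 LN and 1 spleen array, at 0.68 ± 0.26 (adjusted p 0.131). The median was 0.09.

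Of 20 tested genes of the adhesion complex and integrin signalling 4 were higher in LN and 2 lower, with a median of 0.26. Over all genes tested 7.27% were higher and 6.88% lower. The exchange factor Vav3 (1.30 ± 0.35, SE, adjusted p 0.0356 in limma), vinculin, Vcl (1.23 ± 0.35, adjusted p 0.0464), and the exchange factor Arhgef6 (0.91 ± 0.20, adjusted p 0.0138) were higher. Integrin-linked kinase, Ilk, was the fourth (0.76 ± 0.19, adjusted p 0.0225) and was not called without LN replicate 3. Parvg, the parvin of blood cells that binds integrin-linked kinase (-2.76 ± 0.42, adjusted p 0.00159), and the tensin Tns3 (-1.84 ± 0.21, adjusted p 0.000342) were lower, and these 2 calls stood without any 1 array. Vav3 and Vcl lost their calls with any LN array or spleen replicate 3 left out, Vcl also with spleen replicate 1, and Arhgef6 with LN replicate 3 (highest adjusted p 0.0999, 0.131 and 0.0513 in limma). The number higher was 1, 0 and 1 without LN replicates 1, 3 and 4, 2 without spleen replicates 1 or 3 and 6 without spleen replicate 4.

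Of 13 tested membrane partners 3 were higher and 1 lower in LN, with a median of -0.01. The shares over all genes tested were 7.27% and 6.88%. The hyaluronan receptor Cd44 (1.73 ± 0.44, SE, adjusted p 0.0275 in limma) and the tetraspanins Cd9 (1.23 ± 0.21, adjusted p 0.00319) and Cd63 (0.74 ± 0.16, adjusted p 0.0134) were higher, and the tetraspanin Cd82 was lower (-1.23 ± 0.30, adjusted p 0.0206). Cd44 lost its call with any LN array or spleen replicate 2 left out (highest adjusted p 0.0812) and Cd63 with LN replicate 4 left out (adjusted p 0.055), so the number higher was then 2, or 1 for LN replicate 4. Cd82 lost its call with LN replicate 1, 2 or 4 or spleen replicate 3 left out (highest adjusted p 0.0655), which left 0 lower, and 4 were lower without spleen replicate 4.

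Of 8 tested genes of latent TGF-beta handling 1 was higher and 2 were lower in LN, with a median of -0.01. Over all genes tested 7.27% were higher and 6.88% lower. Nrros, which tethers latent TGF-beta on myeloid cells, was lower (-2.38 ± 0.17, SE, adjusted p 2.18e-05 in limma), as was the signal transducer Smad3 (-0.98 ± 0.26, adjusted p 0.0347). The protease Furin, which processes the precursor, was higher (1.05 ± 0.24, adjusted p 0.0161). Smad3 kept its call only without LN replicate 2 or spleen replicate 4, with a highest adjusted p of 0.101 otherwise, and 1 gene was then lower. Furin lost its call without LN replicate 4 (adjusted p 0.0546), which left 0 higher. Tgfb1 itself had -0.06 ± 0.82 (adjusted p 0.979).

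**Figure D4:**
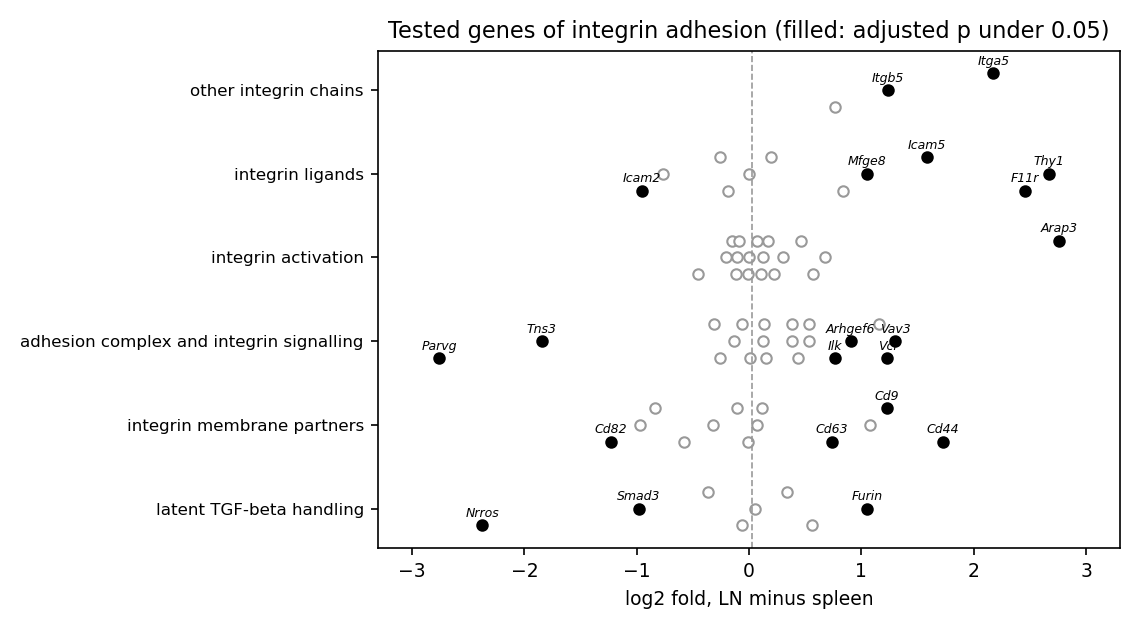
Log2 fold of LN over spleen (horizontal axis) of every tested gene in 6 lists of integrin adhesion (rows), filled and named where the adjusted p was under 0.05. The dashed line is the median of all genes at 0.03. Parvg at -2.76 and Arap3 at 2.76 lie farthest out in the fitted values.

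The remaining marker lists describe what else the 2 sorts held. As background to their counts, 7.27% of all genes tested were higher in LN and 6.88% lower. Of 10 dendritic cell markers 9 were detected on all 8 arrays. Flt3 was detected on 2 LN and 0 spleen arrays and was not tested. Of the 9 tested 1 was called, the actin bundler Fscn1, higher in LN (1.01 ± 0.24, SE, adjusted p 0.0219 in limma, not called when LN replicate 1 or 3 was left out, highest adjusted p 0.0597). The enzyme Kmo (-0.79 ± 0.35, adjusted p 0.206) and the MHC class II chain H2-Ab1 (0.42 ± 0.29, adjusted p 0.435) were not called. Of 5 tested CD11b type markers the lectin Mgl2, detected on 4 LN and 0 spleen arrays, was higher by at least 3.68-fold (adjusted p 0.000351). It passed the filter through LN alone, so the p-value is no further support. Esam was higher (1.36 ± 0.20, adjusted p 0.00115). Clec4a4 (-1.10 ± 0.40, adjusted p 0.113), Sirpa (0.14 ± 0.25, adjusted p 0.811) and Irf4 (0.01 ± 0.35, adjusted p 0.991) were not called. Cd209a and Cd4 were each detected on 0 LN arrays and 1 spleen array, and Clec10a on 0 arrays. The list summed to 10033 to 12704 in LN and 6254 to 10653 in spleen, so the groups overlapped. Erythroid markers summed to 219 to 478 in LN and 5128 to 40039 in spleen, with 5 of 5 tested lower in LN. Among them were the globins Hba-a1, Hbb-bs and Hbb-bt, each detected on 3 LN and 4 spleen arrays, at -6.66, -6.53 and -6.46. Alas2, also among the 5, was detected on 0 LN and 4 spleen arrays, so it passed the filter through spleen alone. Macrophage markers summed to 1703 to 2109 in LN and 3993 to 5259 in spleen, and 1 of 6 was called, the red pulp factor Spic (-2.73 ± 0.19, adjusted p 1.9e-05). Without Spic the list summed to 1220 to 1467 in LN and 867 to 1420 in spleen. The complement genes C1qc, detected on 4 LN and 2 spleen arrays (1.04 ± 0.34, adjusted p 0.0741), and C1qb (0.68 ± 0.51, adjusted p 0.495), and Vcam1, had positive folds, and C1qa was detected on 3 LN and 0 spleen arrays. Adgre1 (-0.19 ± 0.18, adjusted p 0.618) and Fcgr1, detected on 2 arrays of each group (-0.20 ± 0.20, adjusted p 0.637), had negative folds. No neutrophil marker reached 4 arrays, but S100a8, S100a9 and Csf3r were each detected on 3 spleen and 0 LN arrays, and the list summed to 243 to 259 in LN and 276 to 568 in spleen. The monocyte markers Csf1r (0.46 ± 0.33, adjusted p 0.472) and Cx3cr1, detected on 2 arrays of each group (-0.05 ± 0.34, adjusted p 0.964), and the endothelial marker Pecam1 (-0.14 ± 0.39, adjusted p 0.888) were not called. The platelet list had 0 tested genes. The parts of these cells in the integrin differences were not tested.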

How the data were processed

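Total RNA of sorted cells was labelled as biotinylated cRNA and hybridised to 8 mouse Illumina arrays on 2 BeadChips, each with 2 replicates of both groups. Groups and replicate numbers came from the sample titles. The deposited table holds, per the file headers, an unnormalized bead intensity and a detection p-value for each of 45281 probes; 1 blank line was left out. The log2 values that the authors processed have a median of 6.28 on each array and correlate at 0.998989 or more with that array's log2 intensity. The submitters' processing notes list Partek with no version or role, and the background step is not given in the sources used here.

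Here neqc corrected the background by normexp, with the negative controls deduced from detection p-values, added 16, quantile-normalized and took log2 (limma 3.58.1, R 4.3.3). The 14726 probes with a detection p under 0.01 on at least 4 of 8 arrays entered lmFit and a trended eBayes, and p-values were adjusted over all of them (Benjamini-Hochberg). A gene took its brightest passing probe. The number of arrays limits the precision. Of the probes 34885 had 1 symbol, 18 several and 10378 none in the platform table, and 34807 matched the current gene table. No 2 arrays were repeat deposits (highest correlation 0.993). The comparison was also run on simulated data with 14726 probes. There 97% of 100 changes of 2 on the log2 scale and 26% of 100 changes of 1 were recovered. Among unchanged probes 12 were called. The simulated noise was independent, with the same variance in both groups, and fewer probes changed than were called in the data. Recovery in the data can therefore differ. Plots used Python 3.11.15, pandas 2.3.3 and matplotlib 3.10.9, and jsonlite 2.0.0 was loaded in R.

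The members and lists were chosen with earlier results of these data known. The text names all members and the 3 nearest profiles of Itgae and Itgb7. In each list it names up to 3 called genes a direction (with under 3 calls in all, the 3 folds of greatest size). Mfge8, Icam1, Vcam1, Cdh1, Madcam1, Tgfb1, C1qb, C1qa, Cadm1, Siglech, Tcf4, Spib, Prf1, Sirpa, Irf4 and markers on too few arrays to test were added after their values were seen. So were Adgre1, Fcgr1, Ilk and Alas2. Deviations of same-numbered arrays from their group means correlated at 0.31, 0.55, 0.31 and 0.55 over probes. The replicate number was therefore tried as a block, as an alternative only. The main fit, which gave the Results, had no block, so its SEs and adjusted p-values do not use any pairing. Arrays of different number on the same BeadChip correlated at 0.58, 0.37, 0.38 and -0.14 (LN 2 with spleen 1, 1 with 2, 3 with 4, 4 with 3), so the correlations do not tell number from BeadChip. The series text has both organs sorted in parallel from the same mice. Alternatives to the main fit were the replicate number as a block and the BeadChip as a block or alone. Other normalizations, filters and variance models, and leaving out each array, were also tried.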

Additional observations from a re-analysis of the deposited data

Results flagged for a closer look

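Of 36 sets of 4 values examined, 4 held an array far from the other 3. Chance gives about 1 in 20 for independent sets, but these sets share arrays and genes. The count therefore does not measure an excess over chance. Spleen replicate 4 lay below the other spleen arrays in the Itgae probes ILMN_1217629, at a log2 intensity of 5.47, and ILMN_2699898, at 4.95, and in the Itgb1 probe ILMN_2789077, at 5.39. In the same Itgb1 probe LN replicate 2 lay above the other LN arrays, at 7.64. The folds without spleen replicate 4 stand beside these results, and the cause of its low values was not tested.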

How the results depend on the processing

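Itgb7 and the 2 Itgae probes detected in both groups kept direction and call under every alternative that tested them, with log2 folds of 3.61 to 4.99 for the brightest Itgae probe and -2.71 to -1.93 for Itgb7. Where detection on all 8 arrays was required, no Itgae probe was left to test, so 0 members were higher and 1 lower, and 9 function list genes were higher and 6 marker genes lower. Itgav decided the count of members lower in LN, which was 1 rather than 2 with no background correction, median scaling, the authors' processed values, no filter or within the second BeadChip, and 1 to 2 with 1 array left out. Leaving out 1 array gave 8 to 18 function list genes higher and 3 to 8 lower, 1232 to 2952 probes and 801 to 1843 genes called, against 15, 6, 1831 and 1168. Array weights gave 23 higher and 11 lower function list genes, 10 higher marker genes, 4252 probes and 2581 genes, and also called Itgb1 by ILMN_2609304 (0.57, adjusted p 0.0417 in limma) and Itgav by ILMN_1238119 (-0.78, adjusted p 0.0357). Within the first BeadChip 10 marker genes were higher against 4. Within the second alone there were 4 and 3 function list genes, 2 higher and 7 lower marker genes against 4 and 12, 488 probes and 328 genes. The replicate block kept 1 member higher and 2 lower and called 1655 genes, and it changed no other call of a member. With median scaling the median over all genes was 0.20 in place of 0.03, and 63.8% of called genes were higher in LN in place of 51.4%. Probes near background, as for Itgal, Itgam and Itgb8, limit what could be tested.

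Signs of folds were followed for the members, Ccl17 and the list genes named by the rule above. Other genes, such as Prf1, Irf4 and Tgfb1, were not followed. Among those followed, signs turned only in results that were not called. Itga4 turned to 0.037 with median scaling (ILMN_1232028) and to -0.067 within the second BeadChip (ILMN_1233594), and leaving out 1 array gave -0.37 to 0.076 and -0.11 to 0.39 for these probes. Itgb1 (ILMN_2609304) turned to -0.23 within the second BeadChip. Cx3cr1 turned to 0.068 with median scaling, 0.38 with array weights and 0.81 within the first BeadChip, and Pecam1 to 0.078, 0.20 and 0.019. With 1 array left out they were -0.26 to 0.24 and -0.40 to 0.14. Cd8b1 turned to 0.068 with array weights, Clec9a to 0.11 and Irf8 to -0.038 within the first BeadChip, and Csf1r to -0.17 within the second. The cause was not tested.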
